A study of Rattus norvegicus with 25 samples.

Results

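The miR-200 family was followed in the small RNA of rat sperm. Its members were the rows of the deposited miRNA count matrix whose names begin with rno-miR-200a-, rno-miR-200b-, rno-miR-200c-, rno-miR-141- or rno-miR-429, with both arms of each hairpin. This rule found 9 of 562 mature miRNAs, of which 7 passed the filter on low counts, as did 317 miRNAs in all. The arms rno-miR-141-5p and rno-miR-200c-5p did not pass and are described by their counts.

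Mature sperm of Sprague-Dawley rats (F0 males) were collected from the cauda epididymis and purified by a double swim-up. Small RNA libraries of 25 males fell into 4 groups by the drug that the males had self-administered intravenously and by the timepoint of collection. F0_SAL (7 libraries, saline) and F0_MOR (7 libraries, morphine) were collected at the end of self-administration, and F0_ABS-SAL (5 libraries, saline) and F0_ABS-MOR (6 libraries, morphine) after 90 days of abstinence. Abstinent males were therefore older and further from behavioural testing, so age, time since testing and abstinence cannot be told apart in a comparison of timepoints. All males, the saline controls included, carried a jugular catheter, and sperm were released into either of 2 media that the sources used here do not assign to libraries. Column names in the matrix join a letter with the drug (SAL, MOR) and with REG or TO, which are not expanded in the sources used here and were taken as nonabstinent and abstinent because the group sizes match.

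miRNAs of about 22 bases guide Argonaute proteins to target mRNAs, and bases 2 to 8 of the miRNA, the seed, largely set which targets are bound. The family is made from 5 hairpins, and the 3p arm of each is the strand usually loaded. It is best known in epithelial cells, where it represses the transcription factors Zeb1 and Zeb2 and so helps keep cadherin-based junctions. The epididymis, in which sperm mature, is lined by such an epithelium.

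The hairpins lay in 2 genomic clusters in the RefSeq annotation of the assembly GRCr8, which is not the build of the counts (Rnor_6.0, rn6). Mir429, Mir200a and Mir200b lay on the minus strand of chromosome 5 within 1908 bases (chr5:171929682-171931589). Mir141 and Mir200c lay on the minus strand of chromosome 4 within 509 bases (chr4:159209525-159210033). RefSeq held a mature sequence for 6 of the 9 members, and these are shown because the seed groups the members across the clusters. Capitals mark the seed.
rno-miR-141-3p: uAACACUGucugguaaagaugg
rno-miR-200c-3p: uAAUACUGccggguaaugaug
rno-miR-200a-5p: cAUCUUACcggacagugcugg
rno-miR-200b-5p: cAUCUUACugggcagcauugga
rno-miR-141-5p: uCCAUCUUccagugcaguguug
rno-miR-200c-5p: cGUCUUACccagcaguguuug
rno-miR-200a-3p, rno-miR-200b-3p and rno-miR-429 had no entry.

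The seeds of rno-miR-141-3p and rno-miR-200c-3p differed by 1 substitution, C4U, and the 2 sequences by 4 in 21 positions (C4U, U9C, U11G and A17U, counted from 1 at the 5′ end, with the base of rno-miR-141-3p first). rno-miR-200a-5p and rno-miR-200b-5p had the same seed and differed at 5 of 21 positions, all outside it. The hairpins place each seed in both clusters, and they are shown with the heptamer of rno-miR-141-3p (AACACUG) or of rno-miR-200c-3p (AAUACUG) in capitals.
Mir200a: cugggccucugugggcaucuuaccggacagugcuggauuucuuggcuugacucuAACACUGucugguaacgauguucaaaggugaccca
Mir141: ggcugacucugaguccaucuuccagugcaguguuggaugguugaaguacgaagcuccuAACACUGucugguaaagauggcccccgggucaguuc
Mir200b: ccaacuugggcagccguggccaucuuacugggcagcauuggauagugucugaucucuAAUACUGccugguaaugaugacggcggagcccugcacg
Mir200c: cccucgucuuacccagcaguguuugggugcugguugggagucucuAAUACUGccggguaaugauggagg
Mir429: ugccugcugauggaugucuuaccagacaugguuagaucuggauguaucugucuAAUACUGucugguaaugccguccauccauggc
Each heptamer was found, on the given strand, in 4 of 419 rat hairpins (0.955%). Over the 20 bases from the one before the heptamer, Mir200b and Mir200c differed by 1 substitution (U11G), and Mir200a and Mir141 by 1 (C17A, first base from Mir200a). The authors' alignment used a 20-base seed and allowed 1 mismatch, and how a read that matched both members of such a pair was counted is not given in the sources used here. A share of the reads of these pairs may therefore be uncertain between their members.

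miRNA counts per library ranged from 1032386 to 3203211. Levels are given as CPM, counts relative to the library's total of miRNA reads and scaled by TMM factors. The scale adjusts for depth and limits the weight of the few most abundant miRNAs, while differences in those miRNAs remain. Levels of different miRNAs also carry the ligation bias of library preparation. rno-miR-200b-3p was the most abundant member, with a mean of 4603 CPM over the 25 libraries (rank 28 of 562). It was followed by rno-miR-200a-3p at 3123 CPM (rank 37) and rno-miR-200c-3p at 1877 CPM (rank 50). The other members tested were lower, with rno-miR-429 at 253 CPM, rno-miR-200a-5p at 199 CPM, rno-miR-141-3p at 120 CPM and rno-miR-200b-5p at 47.1 CPM.

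The order held in every library for rno-miR-200b-3p over rno-miR-200a-3p (25 of 25), for rno-miR-200c-3p over rno-miR-429 (25 of 25) and for rno-miR-141-3p over rno-miR-200b-5p (25 of 25). Neighbours that exchanged places in some libraries were rno-miR-200a-3p and rno-miR-200c-3p (22 of 25 in the given order), rno-miR-429 and rno-miR-200a-5p (20 of 25), and rno-miR-200a-5p and rno-miR-141-3p (19 of 25). The 2 arms that did not pass the filter were close to the limit of counting. rno-miR-141-5p had at most 15 counts and was above 0 in 19 libraries. rno-miR-200c-5p had at most 4 counts, was above 0 in 7 libraries and was at 0 in all 7 F0_SAL libraries. By counting error only, a count of 0 there allows 3 counts, or 0.937 to 2.59 CPM before TMM scaling. The authors required at least 2 reads, so a 0 can hide a single read and the limit may be higher. These 2 rows have no fold change here.

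**Figure D1:**
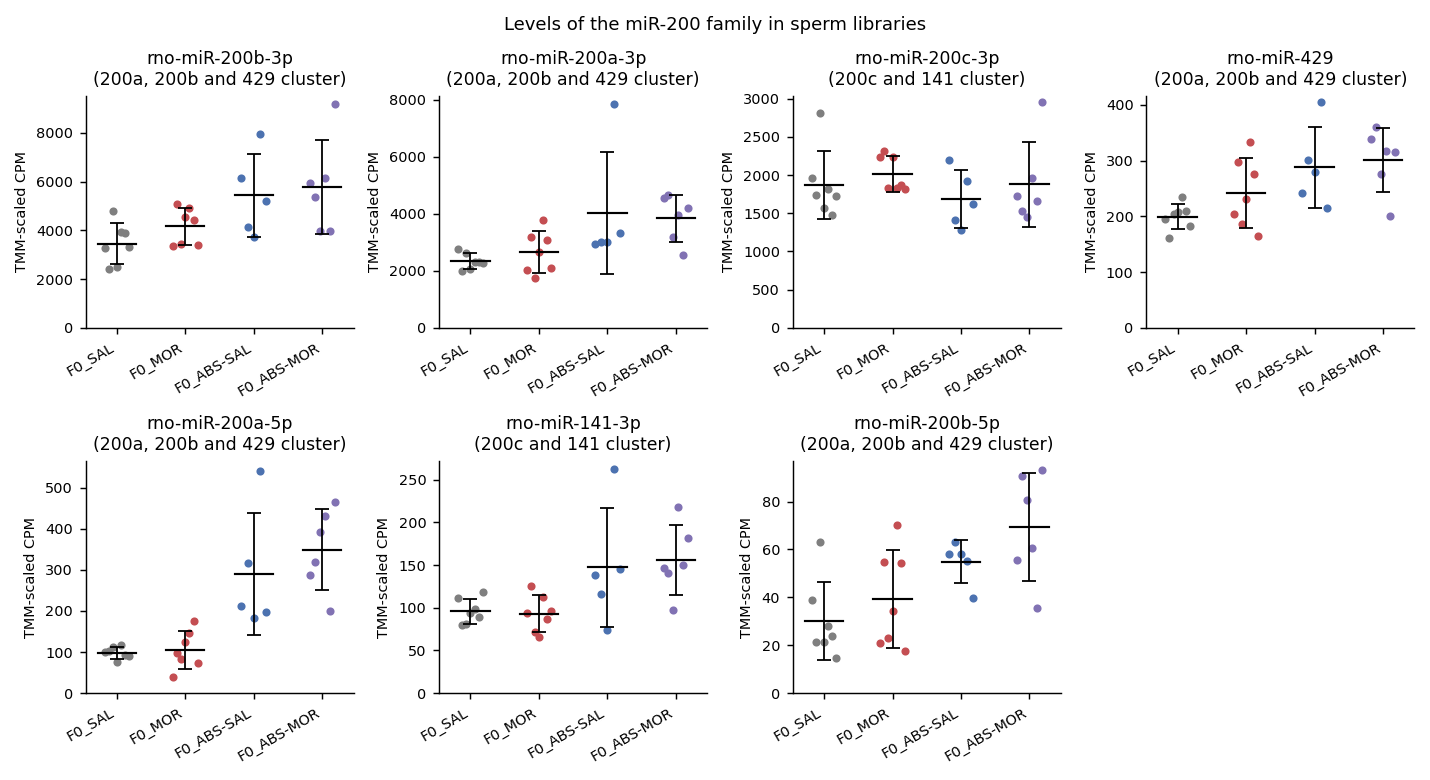
TMM-scaled CPM of the 7 members tested, by group, with 1 point per library and the mean ± SD as lines. rno-miR-200a-5p was higher in every abstinent library than in any nonabstinent library of the same drug, while rno-miR-200c-3p overlapped between all groups.

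The comparison of timepoints asks whether sperm collected after 90 days differed from sperm collected at once, within each drug. A miRNA was called at an edgeR adjusted p under 0.1 with an absolute log2 fold change above 0.58. In saline males 5 of the 7 members tested were higher in F0_ABS-SAL than in F0_SAL and 0 were lower. Over all 317 miRNAs 22.4% were called higher and 10.7% lower (33.1% in either direction). In morphine males 3 of 7 were higher in F0_ABS-MOR than in F0_MOR and 0 were lower, against 11% of all miRNAs called higher and 10.1% called lower (21.1% in either direction). The median log2 fold change of the 7 was 0.66 in saline males and 0.53 in morphine males, against 0.00 and 0.00 over all miRNAs tested. Without F0_ABS-SAL library R the saline median was 0.35. Samples of RNA in bulk do not tell fewer cells of a type from less RNA per cell.

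rno-miR-200a-5p, the passenger arm of the Mir200a hairpin, had the largest fold change of the 7 members in both drug groups. Its lowest, median and highest levels were 74.7, 101 and 117 CPM in F0_SAL, and the 5 F0_ABS-SAL libraries held 183, 198, 213, 315 and 540 CPM. In morphine males the lowest, median and highest were 39.8, 97.9 and 175 CPM in F0_MOR and 199, 356 and 464 CPM in F0_ABS-MOR. No abstinent library overlapped the nonabstinent libraries of the same drug, which held for 4.73% of all miRNAs in the higher and 2.21% in the lower direction in saline males and for 1.89% and 1.58% in morphine males. The log2 fold change was 1.56 ± 0.28 (SE, edgeR adjusted p = 0.000353) in saline males and 1.73 ± 0.28 (edgeR adjusted p = 9.69e-05) in morphine males. It ranked 5th and 2nd by p among the 317 miRNAs.

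rno-miR-200a-3p, the guide arm of the same hairpin, had lowest, median and highest levels of 1982, 2305 and 2769 CPM in F0_SAL. The 5 F0_ABS-SAL libraries held 2926, 2996, 3005, 3311 and 7835 CPM, so the groups did not overlap but 1 library, R, stood far above the other 4. The log2 fold change was 0.78 ± 0.23 (edgeR adjusted p = 0.0125), and without library R it was 0.35 (edgeR adjusted p = 0.205), which ended the call. In morphine males the levels were 1739, 2671 and 3789 CPM in F0_MOR and 2542, 4088 and 4640 CPM in F0_ABS-MOR, with overlap. That log2 fold change, 0.53 ± 0.22 (edgeR adjusted p = 0.0845), was under the fold threshold, and it passed at 0.63, 0.59 and 0.63 without F0_ABS-MOR library S, F0_MOR library B or F0_MOR library N.

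rno-miR-200b-3p, the most abundant member, had lowest, median and highest levels of 2395, 3310 and 4787 CPM in F0_SAL, and the F0_ABS-SAL libraries held 3724, 4138, 5205, 6147 and 7952 CPM. The log2 fold change was 0.66 ± 0.21 (edgeR adjusted p = 0.0253), although the groups overlapped. It fell to between 0.45 and 0.58 and lost the call without F0_ABS-SAL library E or R or without F0_SAL library F or O. With morphine the levels were 3366, 4439 and 5080 CPM in F0_MOR and 3975, 5659 and 9188 CPM in F0_ABS-MOR, and the log2 fold change of 0.47 ± 0.21 did not pass (edgeR adjusted p = 0.103).

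rno-miR-200b-5p, the passenger arm of Mir200b, had lowest, median and highest levels of 14.7, 24.0 and 63.0 CPM in F0_SAL, and the F0_ABS-SAL libraries held 39.6, 55.1, 58.2, 58.2 and 63.0 CPM. All but 1 of the F0_SAL libraries lay below every abstinent library, and the log2 fold change was 0.88 ± 0.33 (edgeR adjusted p = 0.0479). Morphine males had levels of 17.7, 34.1 and 70.1 CPM in F0_MOR and 35.6, 70.6 and 93.0 CPM in F0_ABS-MOR, with overlap. That log2 fold change was 0.82 ± 0.31 (edgeR adjusted p = 0.0691) and lost the call, at 0.72 to 0.75, without F0_ABS-MOR library I or F0_MOR library A, G or U.

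rno-miR-429, the remaining miRNA of the chromosome 5 cluster, had lowest, median and highest levels of 162, 203 and 234 CPM in F0_SAL, and the F0_ABS-SAL libraries held 215, 241, 280, 300 and 404 CPM. The groups overlapped in few libraries. Its log2 fold change of 0.53 ± 0.19 (edgeR adjusted p = 0.0424) was under the fold threshold and passed it, at 0.62, without F0_ABS-SAL library Y. In morphine males it was 0.32 ± 0.19 (edgeR adjusted p = 0.233).

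Of the 2 tested members of the chromosome 4 cluster, 1 was called, and the difference between them was not tested. rno-miR-141-3p, which has the seed found in Mir200a, had lowest, median and highest levels of 79.8, 93.6 and 118 CPM in F0_SAL, and the F0_ABS-SAL libraries held 73.6, 116, 139, 146 and 262 CPM. The abstinent group held both the lowest and the highest of these 12 libraries. The log2 fold change was 0.62 ± 0.24 (edgeR adjusted p = 0.0518), and the call was lost without any 1 of F0_ABS-SAL libraries E and R or F0_SAL libraries F, H, O, P and V, with 0.25 without library R and 0.50 to 0.57 without the others. Among morphine males the levels were 65.2, 93.8 and 126 CPM in F0_MOR and 97.6, 148 and 218 CPM in F0_ABS-MOR. There 5 of 6 abstinent libraries lay above all 7 others, the log2 fold change was 0.74 ± 0.23 (edgeR adjusted p = 0.0254), and the call held without each library in turn.

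rno-miR-200c-3p, the main miRNA of the chromosome 4 cluster, was not called in either drug group. Its lowest, median and highest levels were 1473, 1736 and 2816 CPM in F0_SAL, and the F0_ABS-SAL libraries held 1278, 1409, 1625, 1916 and 2200 CPM. In morphine males they were 1813, 1864 and 2320 CPM in F0_MOR and 1453, 1692 and 2956 CPM in F0_ABS-MOR. The groups overlapped widely, and the log2 fold changes were -0.15 ± 0.19 (edgeR adjusted p = 0.568) and -0.10 ± 0.18 (edgeR adjusted p = 0.751). Their sign was positive when libraries were scaled by total count alone (0.19 and 0.11) or to sperm and testis miRNAs (0.55 and 0.43), and in morphine males also with log2 total count as a covariate (0.07).

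**Figure D2:**
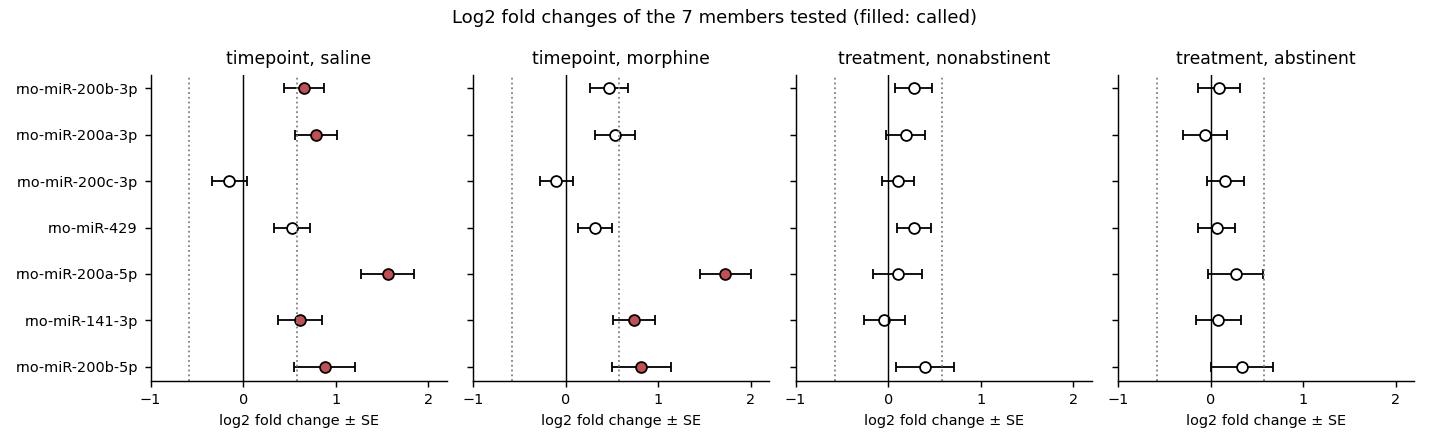
Log2 fold change ± SE (edgeR) of the 7 members tested in the 2 timepoint and 2 treatment comparisons, with dotted lines at the fold threshold of 0.58 in both directions and filled points for members called. In the timepoint comparisons 5 and 3 members were called higher, and in the treatment comparisons 0 were called.

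The count of members called in saline males depended on single libraries. It was 2 of 7 without F0_ABS-SAL library R and 3 of 7 without F0_ABS-SAL library E or F0_SAL library F or O. In library R the summed level of the muscle miRNA list was 81876 CPM, the highest of its group. That sum largely restates rno-miR-143-3p, the most abundant miRNA of the list. In morphine males the count ranged from 2 to 4 as each library was left out. Apart from rno-miR-200c-3p, the members had positive fold changes in both drug groups under each of the 5 scalings plotted.

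Lists of miRNAs known from other cell types were also compared between the timepoints. Over all 317 miRNAs, 22.4% were called higher and 10.7% lower in saline males, and 11% and 10.1% in morphine males. No list was tested against these shares. The 2 endothelial miRNAs, rno-miR-126a-3p (mean 914 CPM) and rno-miR-126a-5p (71.3 CPM), are arms of the same hairpin and not separate markers. Both were higher, with log2 fold changes of 1.25 and 1.54 in saline and 0.88 and 1.02 in morphine males. Their summed level ranged from 546 to 783 CPM in F0_SAL and 583 to 732 CPM in F0_MOR. In the abstinent groups it ranged from 708 to 2821 CPM in F0_ABS-SAL and 1036 to 1457 CPM in F0_ABS-MOR. Of the 6 muscle miRNAs tested, 4 were higher in saline and 2 in morphine males. The most abundant, rno-miR-143-3p, was called higher in both and had a mean of 20690 CPM over all libraries. The next, rno-miR-145-3p, had a mean of 139 CPM and was not called in either. The sum of the 10 in the matrix, largely rno-miR-143-3p, ranged from 13747 to 16911 CPM in F0_SAL and 13151 to 17757 CPM in F0_MOR. In the abstinent groups it ranged from 17678 to 81876 CPM in F0_ABS-SAL and 15778 to 36473 CPM in F0_ABS-MOR. Of the 18 sperm and testis miRNAs tested, 6 were lower in saline and 2 in morphine males and 0 were higher. The most abundant, rno-miR-34c-5p, had a mean of 391825 CPM over all libraries, and the next, rno-miR-34b-3p, had 19697 CPM. In saline and morphine males rno-miR-34c-5p had log2 fold changes of -0.77 ± 0.21 (edgeR adjusted p = 0.00943) and -0.36 ± 0.20 (edgeR adjusted p = 0.188).

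The sum of the 21 sperm and testis miRNAs ranged from 433779 to 778266 CPM in F0_SAL, 359822 to 535915 CPM in F0_MOR, 293031 to 418361 CPM in F0_ABS-SAL and 207627 to 458332 CPM in F0_ABS-MOR. Of the 11 epithelial miRNAs tested outside the family, 3 were higher and 1 lower in saline males and 2 were higher and 1 lower in morphine males. Their summed level, over 13 in the matrix, ranged from 7836 to 13190 CPM in F0_SAL, 8232 to 14301 CPM in F0_MOR, 6770 to 8848 CPM in F0_ABS-SAL and 5552 to 8380 CPM in F0_ABS-MOR. Leukocyte miRNAs gave 1 higher and 0 lower of 9 in saline males and 1 and 1 in morphine males, with sums of 4806 to 6004, 5008 to 6926, 4752 to 5982 and 4720 to 5941 CPM in the same order of groups. Of 3 erythroid miRNAs 0 were called in saline males and 3 were lower in morphine males, with sums of 929 to 2744, 949 to 2377, 654 to 1257 and 308 to 1294 CPM. No row of these lists was at 0 in all 25 libraries. The part of these miRNAs in the result for the family was not tested.

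**Figure D3:**
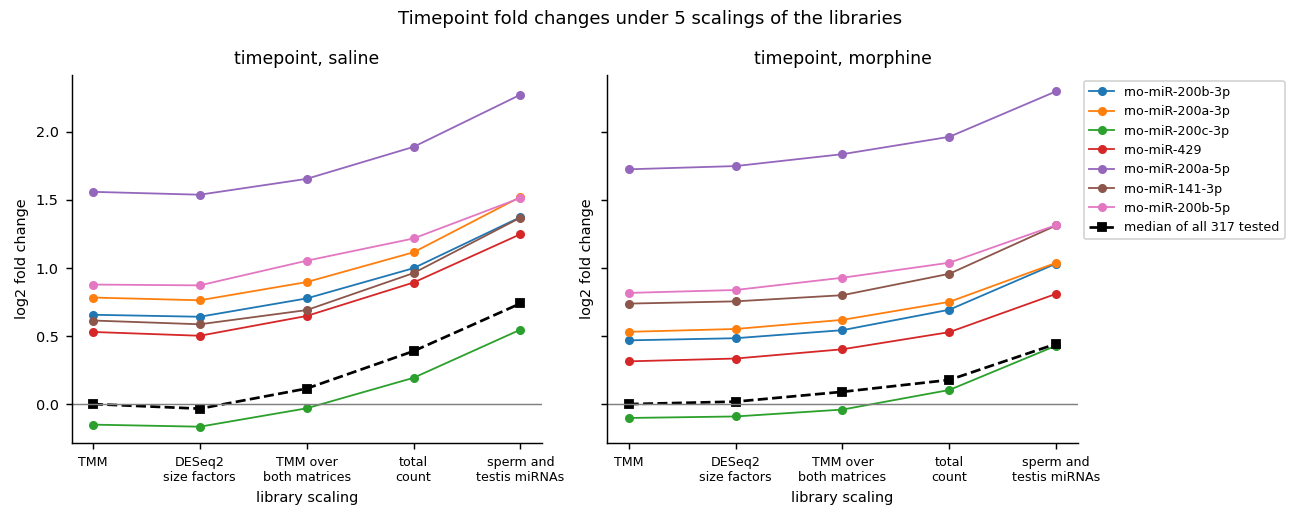
Timepoint log2 fold changes of the 7 members and the median of all 317 miRNAs tested (black squares) under 5 scalings of the libraries. The median moves from 0.00 to 0.74 in saline and to 0.44 in morphine males, and rno-miR-200c-3p is the member whose sign changes.

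The scaling of the libraries moved all fold changes together. The median log2 fold change of all miRNAs tested was 0.39 in saline and 0.18 in morphine males under total count alone. It was 0.74 and 0.44 when scaled to sperm and testis miRNAs. That scaling rests largely on rno-miR-34c-5p, which was itself called lower in saline males (log2 fold change -0.77). Calls over all miRNAs were 71 higher and 34 lower in saline males under TMM, 110 and 1 under total count alone, 95 and 12 under TMM over both matrices and 153 and 1 under the sperm and testis scaling. In morphine males they were 35 and 32, 57 and 14, 44 and 18, and 82 and 3. Relative to that median, rno-miR-200a-5p stood 1.56 higher in saline and 1.72 in morphine males under TMM, and rno-miR-200c-3p stood 0.15 and 0.10 lower. The directions were the same under total count and under sperm and testis scaling. Under the latter, however, rno-miR-200c-3p was close to the median in morphine males (-0.013, rank 163 of 317).

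Ratios of 2 members within a library do not depend on the scaling. Of 16 tests (4 ratios in 2 timepoint and 2 treatment comparisons) 4 passed an adjusted p of 0.05, all between timepoints. The p-values are from two-sided exact permutation tests over libraries, with Benjamini-Hochberg adjustment over the 16. They count arrangements whose absolute difference is at least as large as that observed, and 4 of 16 also passed when the smaller tail was doubled instead, a definition added after the data had been seen.

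The ratio of the Mir200a arms differed between timepoints in both drug groups. The log2 ratio of rno-miR-200a-5p to rno-miR-200a-3p had lowest, median and highest values of -4.77, -4.65 and -4.28 in F0_SAL, and the F0_ABS-SAL libraries held -4.07, -4.04, -3.86, -3.78 and -3.25. The mean difference was 0.77 ± 0.17 (SE, exact permutation p = 0.00126, adjusted p = 0.0101), with 5 of 5 F0_ABS-SAL libraries above all F0_SAL ones. In morphine males the ratio was -5.67, -4.69 and -4.13 in F0_MOR and -3.98, -3.44 and -3.01 in F0_ABS-MOR, with 6 of 6 above all others and a difference of 1.25 ± 0.25 (exact permutation p = 0.00117, adjusted p = 0.0101). The passenger arm thus stood at 4.22% of the guide arm in F0_SAL and 7.19% in F0_ABS-SAL, and at 3.76% and 8.94% in the morphine groups (geometric means).

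For Mir200b the same arm ratio did not pass, with a difference of 0.34 ± 0.32 (exact permutation p = 0.308, adjusted p = 0.562) in saline and 0.48 ± 0.29 (exact permutation p = 0.126, adjusted p = 0.405) in morphine males. Whether the arm ratios of Mir200a and Mir200b changed differently was not tested.

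Of the 2 ratios taken across the clusters, 1 differed between timepoints. The log2 ratio of rno-miR-200c-3p (chromosome 4) to rno-miR-200b-3p (chromosome 5), whose hairpins share a heptamer, had lowest, median and highest values of -1.40, -0.77 and -0.46 in F0_SAL, and the F0_ABS-SAL libraries held -2.05, -1.68, -1.55, -1.54 and -1.48. All 5 F0_ABS-SAL libraries lay below all F0_SAL ones, and the difference was -0.79 ± 0.16 (exact permutation p = 0.00253, adjusted p = 0.0117). In morphine males the ratio was -1.43, -1.02 and -0.59 in F0_MOR and -1.81, -1.64 and -1.26 in F0_ABS-MOR, with a difference of -0.56 ± 0.13 (exact permutation p = 0.00291, adjusted p = 0.0117) and 5 of 6 below all others. rno-miR-200c-3p amounted to 54.6% of rno-miR-200b-3p in F0_SAL and 31.6% in F0_ABS-SAL, and to 48.8% in F0_MOR and 33.0% in F0_ABS-MOR (geometric means).

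The other pair across clusters did not shift past the threshold. The log2 ratio of rno-miR-141-3p to rno-miR-200a-3p differed by -0.16 ± 0.19 (exact permutation p = 0.383, adjusted p = 0.612) in saline and by 0.18 ± 0.22 (exact permutation p = 0.427, adjusted p = 0.620) in morphine males. Ratios within a cluster, added after values had been seen and not tested, differed by 0.65 and 0.86 for rno-miR-141-3p over rno-miR-200c-3p. They differed by 0.03 and 0.12 for rno-miR-200a-3p over rno-miR-200b-3p and by -0.14 and -0.10 for rno-miR-429 over rno-miR-200b-3p.

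**Figure D4:**
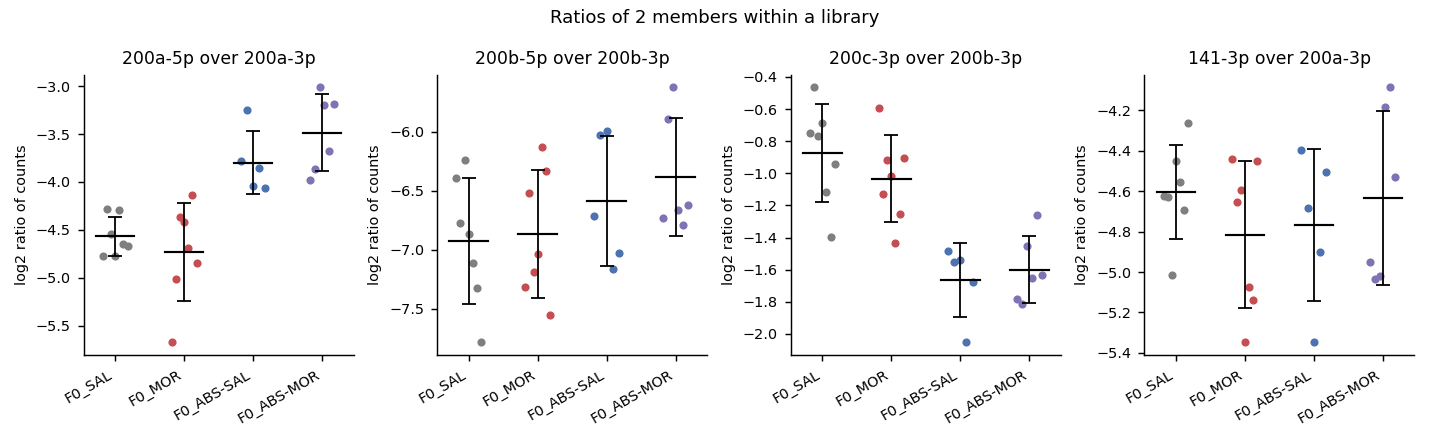
Log2 ratio of the counts of 2 members (each plus 0.5) in each library, by group, with the mean ± SD as lines. The panels of rno-miR-200a-5p over rno-miR-200a-3p and of rno-miR-200c-3p over rno-miR-200b-3p show the ratios that differed between timepoints in both drug groups.

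Summed levels are given as a description, with no test. rno-miR-200c-3p made up 87.7% to 97.2% of the counts of the chromosome 4 cluster, so that sum largely restates its values. The ratio of the sums also depends on the chromosome 5 members, and neither measure says much of rno-miR-141-3p. The members of the chromosome 5 cluster summed to a median of 6399 CPM in F0_SAL, 7592 CPM in F0_MOR, 8969 CPM in F0_ABS-SAL and 10868 CPM in F0_ABS-MOR. Those of the chromosome 4 cluster summed to 1843, 1951, 1773 and 1845 CPM in the same order. The ratio of the sums had medians of 3.09, 3.29, 5.11 and 5.05, and it ranged from 2.56 to 4.16 in F0_SAL against 4.10 to 7.68 in F0_ABS-SAL, and from 2.44 to 4.76 in F0_MOR against 3.84 to 6.41 in F0_ABS-MOR. As a share of all miRNA counts, unscaled, the family had medians of 0.620%, 0.924%, 1.10% and 1.45%.

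**Figure D5:**
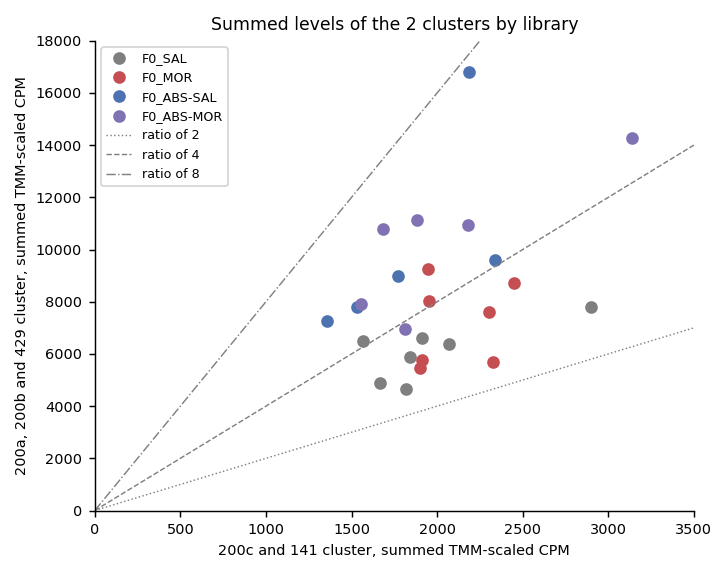
Summed TMM-scaled CPM of the chromosome 5 cluster (vertical axis) against the chromosome 4 cluster (horizontal axis), with 1 point per library and lines of equal ratio. Abstinent libraries lie at ratios of 3.84 to 7.68 and nonabstinent libraries at 2.44 to 4.76.

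The comparison of drugs asks whether self-administered morphine changed the family at either timepoint. With edgeR 0 of 7 members were called at the nonabstinent timepoint (0% of all 317 miRNAs) and 0 of 7 at the abstinent one (0%). At an unadjusted p under 0.05 there were 0 members in either comparison, against 23 and 4 miRNAs in all. DESeq2 and limma-voom also called 0 members, and limma-voom called 1 miRNA in all, at the nonabstinent timepoint.

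The log2 fold changes of morphine over saline ran from -0.04 ± 0.22 (rno-miR-141-3p) to 0.40 ± 0.31 (rno-miR-200b-5p) at the nonabstinent and from -0.06 ± 0.24 (rno-miR-200a-3p) to 0.34 ± 0.34 (rno-miR-200b-5p) at the abstinent timepoint. These p-values do not show that the levels were alike in the 2 drug groups. The 8 ratio tests between drugs had adjusted p-values of 0.502 to 0.840 (exact permutation tests). The interaction, the timepoint difference in morphine males minus that in saline males, called 0 of 7 members and 0% of all miRNAs. Its values ran from -0.25 ± 0.32 (rno-miR-200a-3p) to 0.17 ± 0.40 (rno-miR-200a-5p), with 0 members and 10 miRNAs at an unadjusted p under 0.05 and 0 members called by DESeq2 or limma-voom. A member called in saline and not in morphine males is therefore not shown to differ between the drugs.

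After removal of each group's mean, members varied together to different degrees over the 25 libraries, as a description with no p. Pearson's r of log2 CPM was 0.83 for rno-miR-200a-3p and rno-miR-429 and 0.72 for rno-miR-200b-3p and rno-miR-200c-3p, which come from different clusters. It was 0.40 for rno-miR-141-3p and rno-miR-200c-3p of the same cluster, 0.10 for rno-miR-200c-3p and rno-miR-429 and 0.01 for rno-miR-141-3p and rno-miR-200b-5p. The libraries share their depth and scaling, which enter every pair. Some reads may also be uncertain between rno-miR-200b-3p and rno-miR-200c-3p, and the part of such reads in their correlation was not tested. By the same measure, taken against the mean profile of the 7 members, the most similar miRNAs outside the family were rno-miR-201-5p (r = 0.85), rno-miR-509-3p (0.82), rno-miR-547-3p (0.77), rno-miR-96-5p (0.77) and rno-miR-183-5p (0.75). The last 2 stand in the epithelial list, and rno-miR-201-5p, rno-miR-509-3p and rno-miR-547-3p stand in none of the lists used here. Between timepoints the epithelial list was mixed, with 3 of 11 called higher and 1 lower in saline males and 2 and 1 in morphine males. Its most abundant miRNA, rno-miR-375-3p, was called lower in both (log2 fold changes -0.77 and -0.83).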

How the data were processed

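Per the labels and the study's methods, small RNA of swim-up purified rat sperm was sequenced and the forward reads were used. The authors trimmed adaptors, filtered reads on quality, aligned them to Rnor_6.0 (rn6) with sRNAbench, allowing 1 mismatch and requiring at least 2 reads, and annotated them to miRBase. They deposited raw read counts for 562 mature miRNAs, without normalization, in 25 columns. A second deposited matrix of ncRNA counts entered only 1 alternative scaling. No count was 1, and the smallest count above 0 was 2. The columns carry no replicate numbers, so libraries were assigned to groups only, and per-library totals ranged from 1032386 to 3203211. Between any 2 of the 25 libraries the chi-square per degree of freedom was at least 35.1, and none was taken as a repeat of another. The labels call the samples biological replicates.

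Counts were fitted in R 4.3.3 with the quasi-likelihood test of edgeR 4.0.16 (TMM, edgeR's filter on low counts, 1 model over the 4 groups), with Benjamini-Hochberg adjustment over 317 miRNAs. The SE of a log2 fold change was approximated as its size over the square root of F. Calls needed an adjusted p below 0.1 together with a fold change above 0.58 in absolute log2 units. Log2 CPM used a prior count of 2. Within-library ratios (0.5 added to each count) were compared by exact permutation tests (16 tests). The fit and both definitions of the exact p were tested on simulated data. In a first run the exact test was set against scipy 1.17.1's default, which doubles the smaller tail, and gave another p, so each definition was then checked against its own reference and both were computed for all 16 tests.

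Alternatives were DESeq2 1.42.0, limma-voom (limma 3.58.1), other scalings, filters, thresholds and covariates, and each library left out. Scaling to sperm and testis miRNAs and the second definition of the exact p were added after seeing the data. The members and lists were chosen with earlier results of these data known. All members are named, with the 3 most abundant miRNAs of a marker list at most and the 5 miRNAs most like the family. Mature and hairpin sequences are from RefSeq (GRCr8), and no coordinates were converted. Intervals and limits of counts cover counting error only.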

Additional observations from a re-analysis of the deposited data

Results flagged for a closer look

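Libraries that stood apart from the rest of their group were looked for by the gap between the extreme library and its neighbour, over the range of the group, in 52 sets of values. Chance gives about 2.6 such cases, and 2 were found, both in F0_ABS-SAL. For rno-miR-200a-3p, library R was the highest at a log2 CPM of 12.9 and the next library lay at 11.7. This library was also the highest of its group for rno-miR-200b-3p, rno-miR-429, rno-miR-200a-5p and rno-miR-141-3p. It had the highest muscle sum (81876 CPM, largely rno-miR-143-3p) and the lowest sperm and testis sum (293031 CPM) of the 5. For rno-miR-200b-5p, library Y was the lowest at 5.34 and the next lay at 5.81, with a gap over range of 0.711 against a critical value of 0.71. The part of tissue composition in either case was not tested. The 7 interaction terms gave 0 differences between the drugs.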

How the results depend on the processing

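The 4 ratio calls of 16 stayed at 4 with an offset of 1 or 0.1, under the other definition of the exact p and without each library, and rno-miR-200a-5p kept its call in both timepoint comparisons under every alternative and without each library. The members called in saline males (5) were 3 with limma-voom and 2 to 6 as each library was left out (6 without library Y), and the cause was not tested. Those in morphine males (3) were 5 under total count alone, 5 with log2 total count as a covariate and 6 when scaled to sperm and testis miRNAs, and ranged from 2 to 4 without each library. The 2 treatment comparisons and the interaction gave 0 members throughout. No paired analysis was possible because the columns carry letters and no replicate numbers. Only rno-miR-141-5p and rno-miR-200c-5p were too low for the filter. Depth differed with timepoint, with median totals of 1701012 counts in F0_SAL and 1428308 in F0_MOR. The medians were 2334377 in F0_ABS-SAL and 2134169 in F0_ABS-MOR. The part of depth in the ratios was not tested.

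Signs changed for values that were not called. rno-miR-200c-3p between timepoints was at 0.19 (total count) and 0.55 (sperm and testis scaling) in saline and at 0.11, 0.43 and 0.066 (total count covariate) in morphine males. Between drugs at the nonabstinent timepoint, rno-miR-200a-5p was at -0.029 (limma-voom) and -0.049 (covariate), rno-miR-200c-3p at -0.023 (covariate) and rno-miR-141-3p at 0.15 (total count) and 0.24 (sperm and testis scaling). At the abstinent one rno-miR-200a-3p was at 0.17 (limma-voom) and rno-miR-200b-3p at -0.00444 (covariate). In the interaction rno-miR-200c-3p was at -0.00501 (limma-voom), -0.089 (total count), -0.00922 (TMM over both matrices) and -0.12 (sperm and testis scaling), and rno-miR-141-3p at -0.00517 (total count) and -0.057 (sperm and testis scaling). Without each library in turn, ranges that crossed 0 were, between drugs, -0.12 to 0.17 for rno-miR-200a-5p (nonabstinent) and, abstinent, -0.068 to 0.24 for rno-miR-200b-3p, -0.14 to 0.30 for rno-miR-200a-3p, -0.025 to 0.18 for rno-miR-429 and -0.077 to 0.37 for rno-miR-141-3p. In the interaction they were -0.32 to 0.032 for rno-miR-200b-3p, -0.082 to 0.24 for rno-miR-200c-3p, -0.34 to 0.18 for rno-miR-200a-3p and -0.25 to 0.17 for rno-miR-200b-5p. For log2 ratios between drugs they were -0.084 to 0.17 (rno-miR-200b-5p over rno-miR-200b-3p, nonabstinent), -0.012 to 0.23 (rno-miR-141-3p over rno-miR-200a-3p, abstinent) and -0.034 to 0.11 (rno-miR-200c-3p over rno-miR-200b-3p, abstinent).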
